A study of Homo sapiens with 4 samples.

Results

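The sites described here are all adenosines with a C directly before them (position -1) and a C directly after them (position +1), with any base at -2 and +2, in a library of designed RNAs. They are written NCACN, where N is any base and the middle A is the site, and T stands for U as in the deposited sequences. They were found by the sequence of the RNA alone, at every position from the third base of its 141 bases to the third from the 3′ end. The table held 26503 such sites among 374816 adenosines and 1643863 nucleotides of these positions. They lay in 10203 of the 11999 oligonucleotides and in 3357 of the 3949 different sequences. NCACN departs from DRACH, the consensus of m6A writing, at -1. There the consensus has R, a purine, while its D is any base but C and its H any base but G. NCACN sites with C at -2 or G at +2 thus depart from it at that base too.

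The study asked which sequences the m6A writer complex methylates when only RNA and enzyme are present. RNAs transcribed in vitro from the designed library were incubated with recombinant METTL3–METTL14 (methylated group) or without it (unmethylated group), and antibody crosslinks were then counted at each nucleotide by miCLIP2, in 2 libraries per group. All 4 libraries came from the same RNA design, the same m6A antibody and the same protocol, without cells, so that readers, erasers and other cellular proteins were not part of the reaction. Most sequences were represented by 3 oligonucleotides that differed in their tag, and each tagged oligonucleotide is counted as a site of its own below.

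N6-methyladenosine (m6A) is an abundant internal modification of messenger RNA. It is written by a complex in which METTL3 carries the catalytic activity and METTL14 helps to hold the RNA, and the adenosines it modifies in cells mostly lie in DRACH motifs. In miCLIP2 an antibody against m6A is crosslinked to the RNA and reverse transcription stops at the crosslink, so that a pile of stops marks a modified or otherwise crosslinked nucleotide. The antibody also crosslinks to unmodified RNA, and the unmethylated libraries measure that background at each site.

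The sequences below show the sites on which the results turn, written 5′ to 3′ as designed, with the NCACN 5-mer in capitals and the bases around it in lower case. Each sequence was designed around a selected adenosine at base 51, and the place of a site is given as its distance from that adenosine, before (5′) or after (3′) it. The first 6 hold TCACA or TCACC sites that rose in methylated RNA.
GTPBP1, 55 nt after: cccattctTCACAgaggttgg
VPS4A, 8 nt before: tgttgcctTCACAgtcggaca
ESS2, 43 nt after: tagacgctTCACAgagcctgc
EXOC8, 26 nt after: ggttgcttTCACCaaacagac
ZC3H4, 37 nt after: acccacggTCACAgctgcagc
DNAJB12, 20 nt before: gtattgagTCACAgtagaggc
The next 4 are further sites at which a rise was called in only 1 oligonucleotide of the sequence. This also held for EXOC8 and ZC3H4 above.
WDR6, 83 nt after: gaatgcttTCACTgggtt
ARRDC1, 11 nt before: cgctggatCCACGacgtacgg
MAGOHB, 2 nt after: gccgggggACACGttggctgc
THAP4, 20 nt before: cagcatctTCACGtcacctac
The last 3 are the only site called lower in both fits of single sites and a pair of the sites with the strongest signal. Neither of this pair passed the test.
TMEM214, 44 nt after: agctctagCCACAgcagaagg
OPRL1, 34 nt before: tacgcccaACACAgagctcac
CIC, 10 nt before: tgagggcaGCACGgagtttga
Among the TCACA and TCACC sequences above, GTPBP1, VPS4A, ESS2 and EXOC8 have a further T at -3, whereas ZC3H4 and DNAJB12 have a G there.

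The libraries held 10483825 and 12028474 counts in the unmethylated group and 13110615 and 13265092 in the methylated group. NCACN sites took 88704, 98907, 122214 and 120238 of these, and 55.6% of the sites had a count in any library. Levels are given as counts per 1000000 counts of the library (CPM). Since CPM are shares of a library, a rise at some sites lowers the share of the others. A ratio is the mean CPM of the methylated libraries over the mean CPM of the unmethylated ones. Where a counting interval is given, the ratio is instead taken from the counts and library totals summed over each group. With 2 libraries against 2, the smallest p an exact permutation test can give is far above 0.05, so pooled levels were compared in fits across all 5-mers. Nothing in the labels says that the duplicates were separate methylation reactions, and all p-values measure only the spread between these libraries, which may be technical.

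Summed over all NCACN adenosines, the crosslink signal was slightly higher in methylated RNA. The sum was 8461 and 8223 CPM without the enzyme and 9322 and 9064 CPM with it. The groups did not overlap, and the means were 8342 ± 168.5 CPM and 9193 ± 182.1 CPM (SD, n = 2 each), a ratio of 1.10. The exact two-sided permutation test gave the smallest p this design allows, which is not under 0.05. Against the counts of their own oligonucleotides the sites held 3.67 and 3.58 counts per 1000 without the enzyme and 4.01 and 3.85 per 1000 with it, a ratio of 1.08. The background per site was 0.315 CPM in unmethylated RNA, close to the 0.329 CPM of DRACH sites and the 0.330 CPM of NTACN sites, which differ from NCACN only by a T at -1. Adenosines with C before them but A, G or T after them (NCADN) had 0.545 CPM per site there.

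The gain at NCACN lay between that of other adenosines followed by C and that of adenosines not followed by C. The ratio was 2.39 for DRACH, 2.30 for DRACG, 1.31 for NTACN and 1.17 for CRACN, which has a purine at -1 but C at -2. It was 0.952 for NCADN, 0.952 for all other adenosines not before C, and 0.982 for nucleotides other than A. Per library, the NCACN signal was 65.2% and 61.2% of the DRACH signal in unmethylated RNA and 29.3% and 28.8% in methylated RNA. It was 16.9% and 16.8% of the NCADN signal before and 19.8% and 19.2% after methylation. Against NTACN it went from 217% and 214% to 181% and 182%. None of these 3 relative measures overlapped between the groups, and each had the smallest p that the exact permutation test allows.

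The base at -2 divided the NCACN sites. TCACN sites, with T at -2, summed to 1217 and 1122 CPM in unmethylated and 1596 and 1625 CPM in methylated RNA, a ratio of 1.38. Both methylated libraries stood well above both unmethylated ones. The ratio was 1.06 for ACACN, 1.04 for CCACN and 1.07 for GCACN, and for CCACN the groups overlapped. Taken as one group (VCACN, where V is A, C or G), these sites went from 7244 and 7101 CPM to 7726 and 7439 CPM, a ratio of 1.06. The TCACN signal was 16.8% and 15.8% of the VCACN signal before and 20.7% and 21.8% after methylation, an increase of 0.38 on the log2 scale. Against their own oligonucleotides the ratios were 1.34 for TCACN and 1.04 for VCACN. TCACN made up 19.95% of the NCACN sites.

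Of the 16 NCACN 5-mers, 3 were called higher in the edgeR fit over all 1024 5-mers (adjusted p under 0.05), and none lower. In that fit 6.54% of all 5-mers were called higher and 4.88% lower. All 3 have T at -2. TCACA had 389.6 and 325.7 CPM in unmethylated and 526.2 and 553.9 CPM in methylated RNA, a log2 change of 0.62 ± 0.10 (SE, adjusted p = 2.56e-04). TCACG had 202.9 and 217.7 CPM without the enzyme and 321.4 and 303.2 CPM with it, a log2 change of 0.60 ± 0.10 (adjusted p = 4.20e-04). TCACC went from 330.6 and 291.6 CPM to 430.1 and 422.2 CPM, a log2 change of 0.48 ± 0.09 (adjusted p = 0.0025). In each of these the methylated libraries both exceeded the unmethylated ones by more than the libraries of a group differed. The fourth member with T at -2, TCACT, had 294.2 and 286.7 CPM before and 318.0 and 345.8 CPM after methylation, with a log2 difference of 0.22 that did not pass (adjusted p = 0.149). Among the 12 VCACN 5-mers, GCACC came nearest to the threshold, with 564.8 and 525.8 CPM against 623.7 and 639.9 CPM (log2 difference 0.24, adjusted p = 0.0681). The other 11 had ratios of 1.02 to 1.09, and the groups overlapped in 4 of them, the 3 VCACN 5-mers that end in A and ACACC. Some VCACN members passed in other settings. Without the 1% of oligonucleotides with the highest totals, GCACC passed at 0.26 (adjusted p = 0.0362). There the members ACACC as well as GCACG were also called higher. The member ACACG was called higher where only sites with no DRACN adenosine within 5 nt were counted.

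The same 3 5-mers with T at -2 were called when each 5-mer was set against the totals of the oligonucleotides that hold it. There the log2 changes were 0.59 for TCACA, 0.39 for TCACC and 0.53 for TCACG (adjusted p = 1.35e-04, 0.00292 and 1.35e-04), in a fit that called 4.98% of 5-mers higher and 4.49% lower. Each 5-mer was also set against the 3 that differ from it only at -2, in a fit that called 4.69% of 5-mers higher and 4.30% lower. The 5-mers compared stood at different sites, whose other features, such as the base at -3, were not matched. Relative to their A, C and G counterparts, TCACA was higher by 0.54 ± 0.10, TCACG by 0.47 ± 0.07 and TCACC by 0.35 ± 0.08 on the log2 scale (adjusted p = 0.013, 0.00754 and 0.0461), while TCACT differed by 0.13 (adjusted p = 0.288). This contrast, added after the values were seen, needed both methylated libraries. The differences were 0.66 (TCACA), 0.46 (TCACG) and 0.31 (TCACC) without the first one, and 0.42, 0.49 and 0.38 without the second. None of the 1024 5-mers was then called by edgeR, with 12.99% and 14.84% of them at an unadjusted p under 0.05. TCACC also missed the threshold at 0.27 (adjusted p = 0.0503) where only sites with no DRACN adenosine within 5 nt were counted.

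By the base at +2 the sites differed less. Summed over -2, the ratios were 1.10 for NCACA, 1.12 for NCACC, 1.12 for NCACG and 1.06 for NCACT, and none of these groups overlapped. When each 5-mer was set against the 3 that differ only at +2, none of the 16 members was called higher or lower, against 2.05% and 2.34% of all 5-mers. Of the TCACN members, TCACT was lowest relative to its counterparts (log2 difference -0.35 ± 0.10, adjusted p = 0.0605). It passed, at -0.41 (adjusted p = 0.00865), without the 1% of oligonucleotides with the highest totals.

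The base at -3, which lies outside the rule, separated the TCACN sites further. With T at -3 (TTCACN, 1280 sites in 407 sequences) the signal was 216.2 and 201.0 CPM in unmethylated and 415.4 and 433.8 CPM in methylated RNA, a ratio of 2.04. With A, C or G at -3 the TCACN ratios were 1.27, 1.20 and 1.26. In every one of these 4 groups the methylated libraries lay above the unmethylated ones, but the gain of TTCACN was the largest of the 4. The TTCACN signal was 21.6% and 21.8% of the other TCACN signal before and 35.2% and 36.4% after methylation. In a fit over all contexts from -3 to +1, chosen after these values were seen, TTCAC rose by 1.06 ± 0.08 (adjusted p = 7.48e-06). The other 3 TCAC contexts rose by 0.38 (ATCAC), 0.29 (CTCAC) and 0.36 (GTCAC), and TGCAC (0.43) and TACAC (0.37) were also called. That makes 6 of 16 contexts higher and none lower, in a fit that called 6.84% of 1024 contexts higher and 3.03% lower. Set against the contexts that differ only at -3, TTCAC was higher by 0.72 ± 0.06 (adjusted p = 0.00138) and TGCAC by 0.35 ± 0.07 (adjusted p = 0.0182), while CTCAC was lower by 0.29 (log2 change -0.29, adjusted p = 0.0254). This fit called 4.39% of all contexts higher and 2.93% lower. The calls of TTCAC held without any 1 library, at 1.02 to 1.08 and, against the other bases at -3, 0.70 to 0.75. Of the smaller changes, only that of TGCAC in the first of these fits held without each library in turn. The call of ATCAC was lost at 0.34 without the second methylated and 0.31 without the second unmethylated library, and that of GTCAC at 0.33 without the second unmethylated one. TACAC was lost at 0.31 without the second methylated and 0.28 without the first unmethylated library, and CTCAC was lost without each of the 4, at 0.25 to 0.33. Against the other bases at -3, TGCAC was lost at 0.30 without the first methylated and 0.34 without the second unmethylated library, and CTCAC without each of the 4. T at -3 without T at -2 went with a smaller difference than both together, with a VCACN ratio of 1.17 against 1.04, 1.09 and 0.998 for A, C and G. This ratio differed by the base at -2, with 1.27 for TACAC, 1.01 for TCCAC and 1.31 for TGCAC. With A or G at -2 it was thus not below the 1.20 to 1.27 of T at -2 without T at -3.

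Within TTCACN, the base at +2 gave ratios of 2.76 (TTCACA), 1.80 (TTCACC), 1.59 (TTCACG) and 1.70 (TTCACT). The first of these, TTCACA, went from 72.2 and 62.4 CPM to 172.2 and 198.9 CPM, and its ratio was above the 2.39 of all DRACH sites. The difference between TTCACA and DRACH was not tested. A few sequences carried much of this gain. Of the 80 sequences with counts at TTCACA, 60 gained and 20 lost on average, and the sequence from VPS4A alone gained 44.5 of the 118.2 CPM. Without it the TTCACA ratio was 2.26 and the TTCACN ratio 1.86. Without the 10 sequences that gained most, which were chosen by the outcome, the ratios were 1.37 and 1.53. Over all TCACN sites, 685 of the 1071 sequences with counts gained and 386 lost, and in 306 both methylated libraries exceeded both unmethylated ones, against 110 in the opposite direction. For VCACN those counts were 614 and 340 of 2513 sequences with counts. Such counts were not made over sites of other kinds, so they have no baseline beside them and do not test the gain.

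The gain was centred on the adenosine when neighbours that were themselves DRACN adenosines were left out, as they were throughout this comparison. Across the remaining nucleotides up to 10 nt on either side of TCACN, the ratio at the A was 1.38 and elsewhere between 0.920 and 1.17. The second highest ratio stood at the C before the A, where the signal was 2632 and 2598 CPM in unmethylated and 3065 and 3044 CPM in methylated RNA. Around TTCACN the ratio was 2.04 at the A, 1.34 at the C before it, and 0.913 to 1.18 at the other positions. Around VCACN the ratios at the neighbours ran from 0.864 to 1.06, and the highest of them equalled the 1.06 at the A.

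The TCACN gain was seen at sites far from and near to a DRACN motif, up to 50 nt away. The ratio was 1.46 where the nearest DRACN adenosine lay 3 to 5 nt away, 1.44 at 6 to 10 nt, 1.48 at 11 to 20 nt and 1.30 at 21 to 50 nt, and in none of these bins did the groups overlap. At the 457 TCACN sites with no DRACN within 50 nt the levels were 82.3 and 76.7 CPM without and 74.1 and 88.6 CPM with the enzyme, a ratio of 1.02 with overlapping groups. Those sites all lay in the last 40 bases, near the 3′ end. TCACN sites of the same stretch with a DRACN within 50 nt had 291.1 and 287.4 CPM before and 359.5 and 383.0 CPM after methylation, a ratio of 1.28. Distance and the further features of these sequences cannot be told apart here. Along the RNA, the TCACN ratios were 1.44 up to base 30, 1.48 at bases 31 to 60, 1.44 at 61 to 90, 1.30 at 91 to 120 and 1.17 beyond base 120. VCACN sites had ratios of 1.03 to 1.08 over the distance bins, and 0.830 beyond base 120.

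The TCACN gain was present in each main class of sequence and at paired and unpaired sites. The ratio was 1.42 in the m6A class (sequences around adenosines with m6A in HEK293T, an established line from human embryonic kidney), 1.32 in the class around unmodified DRACN adenosines and 1.33 in the permutated class, in which strong and weak motifs had been exchanged at the selected adenosine. VCACN had 1.08, 0.959 and 1.22 in these classes, and in the unmodified class its groups overlapped. TCACN sites predicted to be unpaired (unpaired probability of at least 0.5) had a ratio of 1.37 and those predicted to be paired one of 1.40. For VCACN the values were 1.07 and 1.01, and in the paired group the libraries overlapped. The differences between these classes were not tested.

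Single sites with enough counts for a test were a small part of the whole. Of the 26503 sites, 2273 in 869 sequences had at least 10 counts in at least 2 libraries, and they do not stand for all members, since a site could pass through the group in which it was high. edgeR called 5.54% of those tested higher and 1.10% (25 sites) lower in methylated RNA at an adjusted p under 0.05, against 3.80% and 1.84% of all 194723 sites tested. The median log2 change was 0.18, against -0.02 over all sites. By the base at -2, 55 of 438 tested TCACN sites were called higher and 1 lower, with a median log2 change of 0.42. Among VCACN sites 71 of 1835 were higher and 24 lower, with a median of 0.12. The share called higher was 3.87% of VCACN sites, near the 3.80% of all sites, and 12.6% of TCACN sites. Without either methylated library fewer sites were called, among NCACN sites as among all sites. The median log2 change was 0.38 for TCACN and 0.07 for VCACN without the first, and 0.43 and 0.16 without the second. DESeq2 called 27 TCACN and 27 VCACN sites higher and 13 NCACN sites lower. Over all sites tested it called 3945 higher and 1963 lower, where edgeR called 7402 and 3577.

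Set against the total of their own oligonucleotide, 40 NCACN sites (1.76%) were higher and 2 (0.0880%) lower, where 1.58% and 0.295% of all tested sites were called. Of these, 25 higher and 0 lower were TCACN. Both fits called 36 sites (1.58%) higher, in 29 sequences, and 1 (0.0440%) lower, against 1.43% and 0.0873% of all sites. The share higher in both fits was thus near that of all sites for NCACN as a whole, with 5.02% for TCACN and 0.763% for VCACN. Against the totals, fewer NCACN sites were called higher without the second methylated library and more without the first unmethylated one, as over all sites. The median log2 changes were then 0.38 and 0.39 for TCACN and 0.13 and 0.16 for VCACN. The 36 sites rose by 1.29 to 5.24 on the log2 scale, with a median of 2.56. The 10 largest rises (1 oligonucleotide per sequence) all had fewer than 10 counts in both unmethylated libraries. They entered the test only through the methylated group, so these sizes and the shares by base at -2 do not stand for all members. Of the 36 sites 22 were TCACN, in 17 sequences, where TCACN made up 19.3% of the tested sites. TTCACN gave 15 of the 22, which is 15.3% of the 98 TTCACN sites tested. Among 14 VCACN sites called in both fits, 6 had a T at -3, which is 1.84% of the 327 such VCACN sites tested.

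The most repeatable rise was at the TCACA of a sequence from GTPBP1, a gene for a GTP-binding protein, 55 nt after the selected adenosine (the window printed above is chr22:38716117-38716137, plus strand). Coordinates rest on those of the selected adenosines in the authors' table, whose build is not stated there, and gene symbols on the overlap with genes of GRCh38.p14. Its strongest oligonucleotide had 5 and 4 counts at the adenosine in unmethylated and 120 and 182 in methylated RNA, while the whole oligonucleotide went from 368 and 293 to 899 and 1113 counts. The log2 change was 4.78 ± 0.47 (adjusted p = 5.40e-07), and 3.43 ± 0.43 against the oligonucleotide's total (adjusted p = 1.27e-05). The same adenosine in the other oligonucleotides of the sequence went from 2 and 7 to 93 and 98 counts and from 5 and 0 to 37 and 42 counts. All 3 were called higher in both fits. With the oligonucleotides summed the log2 change was 4.36.

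A sequence from VPS4A, which encodes an ATPase that takes apart the ESCRT membrane-cutting machinery, held the TCACA site with the highest level (chr16:69324194-69324214, plus strand). Its adenosine, 8 nt before the selected one, had 4.48 and 4.16 CPM in unmethylated and 27.6 and 28.6 CPM in methylated RNA, from 47, 50, 362 and 380 counts. The log2 change was 2.68 ± 0.32 (adjusted p = 7.55e-06), and 2.12 against the oligonucleotide's total. The other oligonucleotides went from 54 and 32 to 299 and 304 counts and from 6 and 5 to 33 and 27 counts. All 3 were called higher, and 2 of them in both fits.

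In a sequence from ESS2, a gene for a nuclear protein linked to splicing, the TCACA 43 nt after the selected adenosine (chr22:19134153-19134173, minus strand) went from 2.38 and 1.83 to 9.99 and 12.7 CPM, with a log2 change of 2.41 (adjusted p = 1.46e-04). A second oligonucleotide went from 8 and 7 to 31 and 51 counts and was also called in both fits, and the last held too few counts for a test. Against the oligonucleotide's total the first change was 1.44 (adjusted p = 0.012), which was lost without the second unmethylated (1.27) or the second methylated library (1.31). The sequence from DNAJB12, which encodes a co-chaperone of the endoplasmic reticulum membrane, had its TCACA 20 nt before the selected adenosine (chr10:72333810-72333830, minus strand). There 4 and 6 counts stood against 45 and 56, a log2 change of 3.06 (adjusted p = 4.92e-04), and a second oligonucleotide had 7 and 3 against 30 and 43. In the sequence from ZC3H4, a zinc finger protein gene, the TCACA 37 nt after it (chr19:47067396-47067416, minus strand) went from 4 and 8 to 67 and 66 counts, a log2 change of 3.20 (adjusted p = 1.39e-04). Another of its oligonucleotides had 7 and 7 against 30 and 23 counts, with a log2 difference of 1.66 that did not pass (adjusted p = 0.0759).

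EXOC8, the gene of an exocyst subunit, gave the largest rise at TCACC that both fits called. At 26 nt after the selected adenosine (chr1:231335875-231335895, minus strand) the site had 5 and 4 counts without and 50 and 56 counts with the enzyme, a log2 change of 3.27 (adjusted p = 2.52e-04). Its other oligonucleotides held at most 5 counts there in any library. Against the oligonucleotide's total the change was 2.18 (adjusted p = 0.0225), and this call was lost without the second unmethylated (1.51) or the second methylated library (2.08).

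Among the 10 largest rises called in both fits (1 oligonucleotide per sequence), only GTPBP1 and DNAJB12 had calls in more than 1 tagged oligonucleotide. At the others only 1 was called, and several of the rest held too few counts for a test. In the WDR6 sequence the TCACT adenosine 83 nt after the selected one (chr3:49013187-49013204, plus strand) had 0 and 1 counts in unmethylated and 23 and 31 in methylated RNA, a ratio of 46.1 with a 95% counting interval of 7.93 to 1850. The oligonucleotide itself did not grow, with 939 and 864 counts before and 686 and 657 after. Another oligonucleotide of the same sequence, of like depth, had 0, 1, 1 and 2 counts at that adenosine, and the deepest one had 2, 1, 1 and 0. In the ARRDC1 sequence the CCACG adenosine 11 nt before the selected one (chr9:137614320-137614340, plus strand) went from 0 and 2 to 52 and 47 counts in one oligonucleotide, a ratio of 42.2 with a 95% counting interval of 11.4 to 354. A second one, with 5723, 8182, 7102 and 5856 counts in all, had 20, 19, 15 and 22 there, a log2 difference of -0.33 that did not pass (adjusted p = 0.795). The oligonucleotide with the rise had itself gone from 4018 and 3977 to 13731 and 11865 counts. At both adenosines the same 141 bases thus gave a rise with one tag and none with another.

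The ACACG of the MAGOHB sequence (chr12:10613561-10613581, minus strand), which lies 2 nt from the selected DRACN adenosine, was likewise called in only 1. It had 3 and 3 counts against 49 and 32 in one oligonucleotide (log2 change 3.46, adjusted p = 6.52e-04), but 0, 1, 0 and 2 in another that held 1949, 3091, 3384 and 2581 counts. Its change against the oligonucleotide's total, 2.35 (adjusted p = 0.031), was lost without the second unmethylated (2.16) or the first methylated library (2.05). In the THAP4 sequence of the permutated class, the TCACG 20 nt before the selected adenosine (chr2:241584624-241584644, minus strand) had 1 and 0 against 25 and 10 counts, a ratio of 29.9 with a 95% counting interval of 5.02 to 1210. Its call was lost without the first methylated library (log2 difference 3.76, adjusted p = 0.482) and in DESeq2. Its other oligonucleotides, too low for a test, had 0 and 1 against 3 and 11 and 1 and 0 against 6 and 2 counts. The same 21 bases stood at the same place in 3 further THAP4 sequences, where counts were too low for a test. The native sequence had no count there in any library, with 1768, 1551, 1816 and 2094 counts in all, and the 2 other permutations had 1 and 4 against 8 and 7 and 0 and 0 against 2 and 2. These intervals cover counting error only.

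A GCACG site 40 nt after the selected adenosine (chr1:2185084-2185104, plus strand), at a locus in more than 1 gene, had 5 and 2 against 34 and 41 counts in one oligonucleotide, a log2 change of 3.12 (adjusted p = 0.00171). Its call against the oligonucleotide's total (2.20) was lost without the second unmethylated (1.57) and without either methylated library (2.36 and 2.01). With its oligonucleotides summed, 6.98 and 6.46 counts per 1000 counts of the sequence stood against 8.01 and 8.36, and the log2 difference of the counts, 1.02, did not pass (adjusted p = 0.0557). A GCACA 44 nt before the selected adenosine, in a sequence from chromosome 6, had 6 and 4 against 57 and 40 counts (log2 change 3.0, adjusted p = 8.24e-04). It was the only oligonucleotide of its sequence with enough counts.

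Few sites were called higher with every tag, among NCACN sites as among all sites. At 224 NCACN sites all 3 oligonucleotides of the sequence could be tested. All 3 were called higher at 4 of them (1.79%), 2 at 3 (1.34%), 1 at 24 (10.7%) and none at 193 (86.2%). Over the 25451 sites of any kind tested in 3 oligonucleotides these shares were 1.34%, 1.68%, 6.05% and 90.9%. All 3 log2 changes were above 0 at 30.8% of the NCACN sites and at 23.8% of all. For TCACN, 13 of 36 sites had all 3 changes above 0 and 3 of 36 had none, and for VCACN 56 and 39 of 188.

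A single NCACN site was lower in both fits. The CCACA 44 nt after the selected adenosine of a sequence from TMEM214 (chr2:27041278-27041298, plus strand) had 38 and 52 counts in unmethylated and 11 and 27 in methylated RNA, a log2 change of -1.49 ± 0.44 (adjusted p = 0.049). This call was lost without the first methylated library (-1.0), without the second unmethylated one (-1.32), with other filters, with scaling by library totals and in DESeq2. A second oligonucleotide had 17 and 19 against 5 and 10 counts (log2 difference -1.50, adjusted p = 0.144).

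In 6 cases the 21 bases around a called site were present in several designed sequences. The TCACC window of EXOC8 occurred 26 nt after the selected adenosine in one sequence and 62 nt after that of another, which covers the same genomic adenosine. Summed over its oligonucleotides, the first had 11.3 and 4.92 counts per 1000 counts of the sequence at this site in unmethylated and 22.2 and 26.1 in methylated RNA (log2 change of the counts 2.75, adjusted p = 4.23e-04). The second had 3.86 and 3.61 against 12.7 and 13.3 per 1000 (log2 change of the counts 1.45, adjusted p = 0.00914). Against the totals of the oligonucleotides the first did not pass (log2 difference 1.69, adjusted p = 0.0547) and the second did (1.80, adjusted p = 3.77e-04).

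The ESS2 window occurred 43 nt after the selected adenosine in one sequence and 36 nt before it in 6 others, the native sequence and its permutations around another selected adenosine. At the first place it had 34 and 32 against 166 and 224 counts (log2 change 2.29, adjusted p = 5.73e-05). At the second, none of the 4 sequences with enough counts was called with its oligonucleotides summed, with log2 differences of 0.55 to 1.02. The deepest of them had 28 and 31 against 63 and 81 counts, and it was called against the totals of its oligonucleotides (log2 change 1.44, adjusted p = 0.0149). A single oligonucleotide with the ESS2 window at this second place was called in both fits, with 12 and 17 against 45 and 58 counts (log2 change 1.57, adjusted p = 0.0287). A TCACG window from SPG7, tggtctagTCACGcatgcagt, stood 19 nt after the selected adenosine of the native sequence and of 5 permutations (chr16:89557668-89557688, plus strand). Its log2 differences ran from 0.95 to 2.60 over the 6 sequences, with oligonucleotides summed, and 3 of these passed. Against the totals of the oligonucleotides the differences were 0.08 to 1.66, and the native sequence alone passed (adjusted p = 0.019). The native one had 11 and 12 against 54 and 79 counts (log2 change 2.26, adjusted p = 0.00126). Of the other 2 shared windows, GCACT in 6 sequences and GCACG in 2, no sequence with enough counts was called with its oligonucleotides summed, in either fit.

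Nearly all of the strongest NCACN signals did not pass the test. The highest single site was the GCACG 10 nt before the selected adenosine of a sequence from CIC, which encodes a transcriptional repressor (chr19:42273439-42273459, plus strand), with 291 and 290 CPM in unmethylated and 259 and 249 CPM in methylated RNA. Its log2 difference of -0.21 did not pass (adjusted p = 0.752), and it alone held 37.9% of the GCACG signal. The ACACA 34 nt before that of a sequence from OPRL1, the nociceptin receptor gene (chr20:64098847-64098867, plus strand), had 1431 and 2291 against 2225 and 1294 counts, with overlapping groups and a log2 difference of -0.31 (adjusted p = 0.662). Of the 16 sites with the highest level in their 5-mer, only the TCACA of VPS4A was called. At the CCACG of MCM3AP, another oligonucleotide than the highest one was called higher, with 95 and 183 against 478 and 448 counts (log2 change 1.51, adjusted p = 0.0043), but not against its total (0.53, adjusted p = 0.367). The TCACC of SHISA8 had 24.7 and 26.9 against 37.9 and 24.1 CPM, the TCACG of LRRC61 9.06 and 11.1 against 13.2 and 12.2 CPM, and the TCACT of GSTZ1 10 and 12 against 15.8 and 15.0 CPM, and none of these 3 passed the test. At the other 12 the log2 differences ran from -0.77 to 0.57.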

How the data were processed

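Crosslink events of in vitro miCLIP2 were analysed in 4 libraries, 2 of unmethylated and 2 of methylated RNA. The values are raw counts per nucleotide position, deposited by the authors without normalization. FastQC 0.11.8, STAR 2.7.3a and bedtools 2.27.1 are named per the submitters' processing notes. Which step each tool served, whether duplicate reads were removed, and the build of the coordinates: none of this is given in the sources used here.

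A site was 1 position of 1 tagged oligonucleotide. Those that reached 10 counts in 2 or more libraries were tested with edgeR 4.0.16 (R 4.3.3; quasi-likelihood F test with TMM scaling, the design holding the group alone), once as counted and once with the oligonucleotide's total plus 1 as offset. Counts were also summed over all sites of a 5-mer, or of a context from -3 to +1, and tested over all 1024 of these, with and without an offset. P-values were two-sided and Benjamini-Hochberg adjusted over all features of a fit, with a threshold of 0.05. Standard errors are the log2 change over the square root of F. In simulated data the site fit recovered 1% of 2-fold and 34% of 4-fold changes, and the 5-mer fit 100% of both. Changes under 2-fold, such as those of all NCACN 5-mers, were not simulated, so recovery at their size is not known. Of the unchanged 5-mers, 6 of 824 were called, 13 of 824 against oligonucleotide totals and 13 of 424 in the contrast at -2. Between libraries of a group, oligonucleotide totals differed by 20.7 and 18.7 times what sampling gives (chi-square per degree of freedom), so that none was taken for a repeat deposit.

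Sites named were the 10 largest rises and the falls called in both site fits with groups apart, the site with the highest mean CPM of each NCACN 5-mer, and the 5 sequences with calls in the most oligonucleotides. At most 1 oligonucleotide per sequence was taken in each set, and chromosome 8 was left out. SPG7 was chosen after its values were seen. The contrasts at -2 and +2 and the contexts with -3 were added after values were seen, and the members and lists were chosen with earlier results of these data known. Windows were placed by counting from the selected adenosine, whose coordinate the authors' table gives; sequences of overlapping loci held the same base at 98.4% of 11841 shared coordinates. Symbols are RefSeq genes of GRCh38.p14 at loci in exactly 1 gene (98.7% of 3488 loci lay in a gene), irrespective of strand. Pairing was predicted with ViennaRNA 2.7.2. Same-numbered libraries did not deviate together (correlation of replicate differences -0.0637 over tested sites, -0.272 over 5-mers), so that no pairing was assumed. Exon and UTR annotation was not used here.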

Additional observations from a re-analysis of the deposited data

How the results depend on the processing

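The calls of the TCACN 5-mers ending in A, C and G in the pooled fits, with and without oligonucleotide totals, held under every alternative run (library totals, the 1% deepest oligonucleotides left out, no DRACN within 5 nt, replicate block, each library left out). Scaling by library totals was not run against oligonucleotide totals, where it plays no part. Without the 1% deepest oligonucleotides 6 members were higher in either of these fits and 10 contexts from -3 to +1. With a replicate block 3 5-mers were called in both fits, and 63 TCACN and 80 VCACN sites higher (33 and 26 against totals). With the crossed pairing 75 TCACN sites were higher and 43 NCACN sites lower (37 and 5 against totals, with 32 VCACN higher), 3 5-mers were higher in both fits, and 1 context in each fit at -3. Over all sites tested the block called 7962 and the crossed pairing 10615 higher (3812 and 4268 against totals).

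The log2 difference of the NCACN share was 0.14, and 0.19 without the deepest oligonucleotides and 0.17 with equal weight per site. For TCACN it was 0.46 against 0.35 with equal weight, and for VCACN 0.08 against 0.13 and 0.12. Leaving out a library gave 0.12 to 0.16, 0.40 to 0.52 and 0.05 to 0.10. Relative to NTACN the change was -0.24, and -0.26, -0.30 and -0.27 without the deepest oligonucleotides, with equal weight and with no DRACN within 5 nt (leave-one-out -0.26 to -0.23). Relative to NCADN it was 0.21, and 0.25 and 0.26 (0.19 to 0.23), and relative to DRACH -1.12, and -1.0 with equal weight (-1.17 to -1.07).

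DESeq2 called 27 TCACN and 27 VCACN sites higher and 13 NCACN sites lower. A minimum of 5 counts left 16 lower, and 1 lower against totals; with oligonucleotides summed 4 were lower against totals. Leaving out a library gave 32 to 52 TCACN and 25 to 72 VCACN sites higher and 5 to 31 lower; against totals 13 to 27, 10 to 34 and 1 to 8. It gave 0 to 3 members higher against the other bases at -2, 3 to 5 contexts from -3 to +1 and 1 to 2 against the other bases at -3. Over all alternatives 26.2% of the NCACN sites called higher kept their call (33 sites, 18 of them TCACN), as did 1 of the 25 lower; against totals it was 14 of 40 higher and 0 of 2 lower. All these calls kept their direction where tested. Of differences that were not called, some changed sign, such as the ACACA of OPRL1 (-0.31, up to 0.05) and the TCACC of SHISA8 (0.25, down to -0.13). Low counts limit the site test, since most NCACN sites were below the filter and 4-fold changes were often missed in simulated data.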
